A study of Mus musculus with 11 samples.

Results

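The comparison described here is between livers of mice that lacked both Nemo in hepatocytes and TNFR1 in every cell (3 arrays, replicates 1 to 3) and wild-type livers (3 arrays, replicates 1 to 3). The members were chosen by genotype label, with earlier results of these data known, and make up 6 of the 11 arrays of the series. The 3 arrays of mice with the Nemo deletion only (Nemo KO) are set beside them where the question is what TNFR1 adds. All mice were males labelled C57/BL6, aged 8 to 9 weeks and fed standard chow, and no group received a further treatment. The Nemo alleles were flanked by loxP sites and deleted in hepatocytes, so the other liver cells kept Nemo, while the TNFR1-/- deletion was constitutive. The labels do not name the Cre driver, nor do they state whether the wild-type mice carried loxP alleles.

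Nemo, encoded by Ikbkg, is the regulatory subunit of the IKK complex, which frees NF-kB to enter the nucleus and switch on survival and inflammatory genes. TNFR1, encoded by Tnfrsf1a, is the receptor through which TNF activates NF-kB and, where that protection fails, triggers cell death. Loss of Nemo in hepatocytes is known to give spontaneous hepatocyte death, steatohepatitis and later tumours, and crossing in a TNFR1 deletion asks which part of that injury programme needs this receptor.

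RNA was hybridised to a whole-transcript mouse array with 35556 probe sets, and the values are log2 expression after RMA (robust multi-array averaging, which corrects background, equalises the arrays and summarises the probes of a set). A difference of 1 on this scale is a 2-fold change. The arrays had medians from 6.26 to 6.32, and having 3 arrays per genotype bounds the precision of each value. Nothing in the labels says how the mice were related, so the p-values reflect the spread between these samples alone, which may be technical. The array names carry 1 code for wild type and Nemo KO, another for the double knockout, and the Nemo/TRAIL double knockout arrays of the series have a code of their own. What the code marks is not given, and if it is a batch, the batch of the double knockout arrays cannot be told apart from their genotype. Wild-type replicate 3 stood apart in that it held pancreatic acinar transcripts. The level of 18 acinar genes, as mean difference from the wild-type mean, was 3.45 there against -1.69 and -1.77 in the other wild-type arrays. It was -1.93 to -1.80 in the double knockout. Without wild-type replicate 3, 2787 probe sets were called in the comparison below. The hepatocyte marker Alb (albumin) was high in both genotypes, with mean values of 13.86 in wild type and 13.88 in the double knockout, while 23 of 29 differentiated hepatocyte genes had a lower mean in the double knockout, 3 of them called.

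The probe set for Ikbkg read 8.65, 8.73 and 8.60 in wild type and 8.20, 8.31 and 8.12 in the double knockout. The groups did not overlap, and Ikbkg fell by 0.45 (SE 0.08, adjusted p = 0.00818). Other liver cells keep Nemo, so the remaining signal is not a measure of the deletion in hepatocytes. The Tnfrsf1a probe set read 10.09, 9.93 and 9.95 in wild type and 10.04, 9.95 and 10.19 in the double knockout, with overlapping groups and a difference of 0.07 (SE 0.09, adjusted p = 0.67). Where its probes lie relative to the deleted part of Tnfrsf1a was not established here, so this value does not check the genotype. In bulk liver, fewer cells of a type and less RNA per cell cannot be told apart, which holds for every gene below.

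Without TNFR1, the Nemo-deficient liver still differed from wild type in 3263 probe sets at an adjusted p below 0.05, of which 2073 were higher and 1190 lower in the double knockout. These are 9.18% of all 35556 probe sets, 5.83% higher and 3.35% lower, and the share is the background for every count that follows. Among genes with a name the share is higher, 12.1% of 19916 genes represented by 1 probe set each. The 3263 probe sets stand for 1642 distinct named genes that rose and 800 that fell, and 596 of the probe sets changed at least 2-fold. The groups did not overlap in 3262 of them, so a lack of overlap given below adds little to a call. The count of 3263 rested on single arrays, being 1926 without double knockout replicate 3, 1970 without replicate 2 and 2157 without wild-type replicate 2. It was 1831 when only the 6 arrays were fitted.

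The called genes were not spread evenly over the gene lists used here, which were written with earlier results of these data known. In 46 gene lists holding 911 measured genes, the highest shares of rising genes were in mitosis (32 of 32), genes of lipid-associated macrophages (20 of 24), DNA replication (24 of 31), extracellular matrix (24 of 33), monocyte markers (12 of 17), matrix proteases and inhibitors (12 of 20) and stellate cell markers (10 of 18). The highest share of falling genes was in male-biased liver genes, where 13 of 21 fell. By contrast, 1 of 14 B cell markers, 1 of 16 neutrophil markers and 2 of 20 sinusoidal endothelial markers were called.

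**Figure D1:**
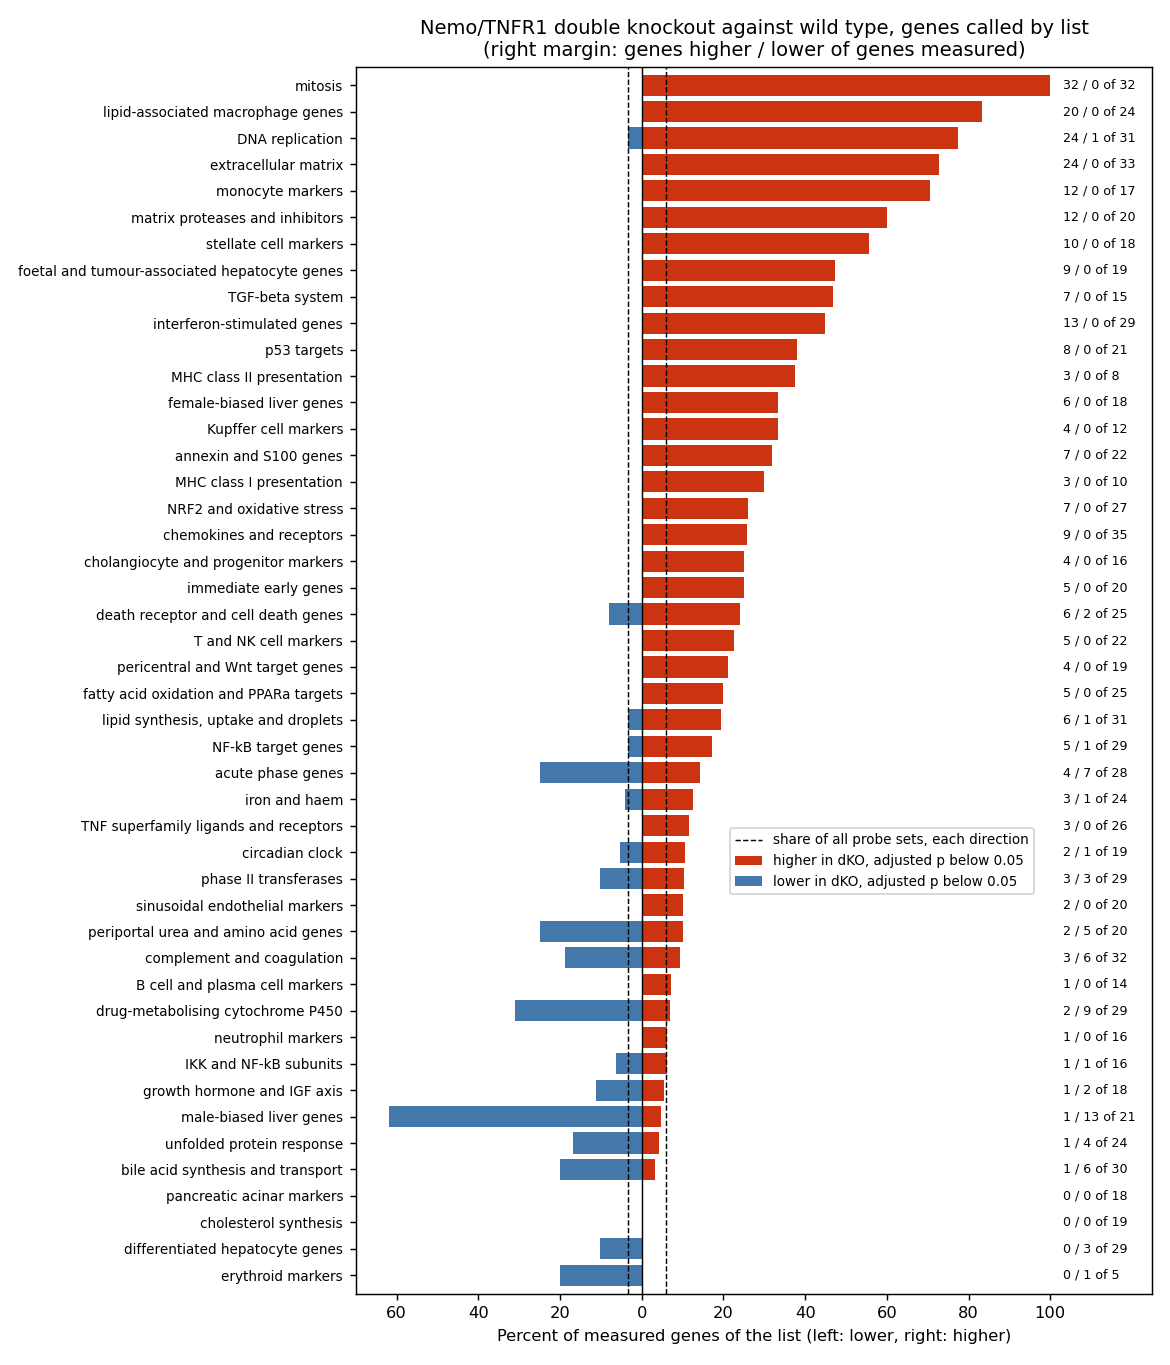
Percent of the measured genes of each of 46 lists that were called higher (right) or lower (left) in the Nemo/TNFR1 double knockout than in wild type at an adjusted p below 0.05, with the counts at the right margin; dashed lines give the shares over all probe sets (5.83% higher, 3.35% lower). Mitosis (32 of 32) and lipid-associated macrophage genes (20 of 24) lead the rises, and male-biased liver genes (13 of 21) lead the falls.

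Every measured gene of the mitosis list rose, with a median difference of 1.95 against -0.04 over all probe sets. Ccnb2, which encodes cyclin B2 and drives entry into mitosis, read 6.10, 6.39 and 6.98 in wild type and 9.28, 10.48 and 10.02 in the double knockout, a 10.8-fold rise (difference 3.44, SE 0.29, adjusted p = 0.000352). Ccna2, the S- and M-phase cyclin A2, rose 8.39-fold (difference 3.07, SE 0.36, adjusted p = 0.00117). The mitotic kinase gene Plk1 read 5.61, 5.47 and 6.09 against 7.75, 8.92 and 8.82, and Ect2, needed for cytokinesis, rose by 2.77 as Plk1 did. The double knockout arrays lay above every wild-type array for all of these genes, and replicate 1 of the double knockout was the lowest of its group for each. Between 30 and 32 of the 32 genes were called whichever array was left out.

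Genes that copy DNA rose in 24 of 31, with a median difference of 0.89. Rrm2, the ribonucleotide reductase subunit that supplies deoxynucleotides, read 6.34, 6.15 and 6.49 in wild type and 8.27, 9.25 and 8.85 in the double knockout, a 5.51-fold rise (adjusted p = 0.000535). Mcm6, a subunit of the replicative helicase, rose 5.1-fold (difference 2.35, SE 0.20, adjusted p = 0.000378). Mcm5, of the same helicase, rose by 1.48 and Pole, the catalytic subunit of a replicative polymerase, by 1.38. The exception was Mcm10, chosen here after its value was seen, which was the 1 gene of the list that fell, by 0.78. In 30 of the 31 genes the mean was higher in the double knockout than in Nemo KO, with a median difference of 0.23 against 0.01 over all probe sets, though none of the 31 was called in that comparison. The level of the list was 0.72, 1.10 and 0.74 in the double knockout arrays and 0.49, 0.64 and 0.67 in Nemo KO. Genes of a list can move together in an array, so these are not 31 separate observations. Rrm2 differed from Nemo KO by 0.68 (95% interval 0.16 to 1.21, adjusted p = 0.619) and Mcm6 by 0.65 (0.20 to 1.10, adjusted p = 0.55). These intervals, like those below, hold for 1 probe set at a time. Unlike the adjusted p, they do not allow for the number of probe sets tested, so an interval without 0 is not a call.

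Promoter elements near the start of transcription are known to regulate mitotic genes. The 150 bases before the start were therefore read for the 27 mitosis genes with a RefSeq promoter (build GRCm38.p6) and searched on both strands. The letters CCAAT occurred in 19 of 27 (70.4%) against 25.3% of 27025 promoters of the same length, the letters TTTGAA in 7 (25.9%) against 9.24%, and both in 6 (22.2%) against 2.32%. A match describes the sequence and is not evidence of binding. The promoters of the 3 printed genes, which were among the 4 mitosis genes with the largest rises, show these letters in capitals on either strand. The lines give, 5′ to 3′ on the strand of the gene, Ccnb2 at chr9:70421555-70421704 (minus strand), Plk1 at chr7:122159285-122159434 (plus strand) and Ect2 at chr3:27153879-27154028 (minus strand).
Ccnb2: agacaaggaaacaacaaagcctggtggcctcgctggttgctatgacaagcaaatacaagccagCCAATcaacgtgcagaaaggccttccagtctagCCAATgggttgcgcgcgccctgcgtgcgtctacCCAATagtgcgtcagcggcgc
Plk1: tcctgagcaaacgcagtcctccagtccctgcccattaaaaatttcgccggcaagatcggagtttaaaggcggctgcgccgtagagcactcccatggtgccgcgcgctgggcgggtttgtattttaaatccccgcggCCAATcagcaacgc
Ect2: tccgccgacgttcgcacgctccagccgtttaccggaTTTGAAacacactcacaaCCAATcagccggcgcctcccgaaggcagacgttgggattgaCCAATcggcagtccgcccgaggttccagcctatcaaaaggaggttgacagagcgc
Ccnb2 carries CCAAT 3 times in this window and Plk1 1 time, and Ect2 carries both sets of letters without overlap. Ect2 has 2 annotated starts, and the first listed was used.

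The 12 largest rises of single genes included the P450 genes Cyp2b9 and Cyp2a22, described with the female-biased genes and after them. Ly6d, a surface protein of epithelial and lymphoid progenitors, read 5.86, 6.81 and 6.46 in wild type and 10.08, 11.13 and 11.06 in the double knockout, a 20.8-fold rise (difference 4.38, SE 0.51, adjusted p = 0.00118). Sprr1a, a cornified envelope protein induced by epithelial stress, read 6.20, 6.07 and 6.49 against 10.05, 10.46 and 10.71, a 17.8-fold rise (adjusted p = 0.000161). Gpnmb, a glycoprotein of lipid-laden macrophages, rose 14.6-fold from 5.30, 5.65 and 5.64 to 8.73, 9.86 and 9.60. The groups did not overlap for these 3 genes, which the choice of the 12 required. Mybl1, which encodes a MYB-type DNA-binding factor, rose 10.6-fold and the spindle protein gene Knstrn 8.75-fold. The locus D17H6S56E-5, whose product is not well described, rose 15.4-fold. Akr1c18, a reductase of steroid metabolism, rose 7.72-fold, but its adjusted p was 0.0529 without double knockout replicate 2, 0.0586 without replicate 3 and 0.0519 without wild-type replicate 2. In Nemo KO the differences from the same wild-type arrays were 4.35 for Ly6d, 3.81 for Sprr1a and 3.38 for Gpnmb.

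**Figure D2:**
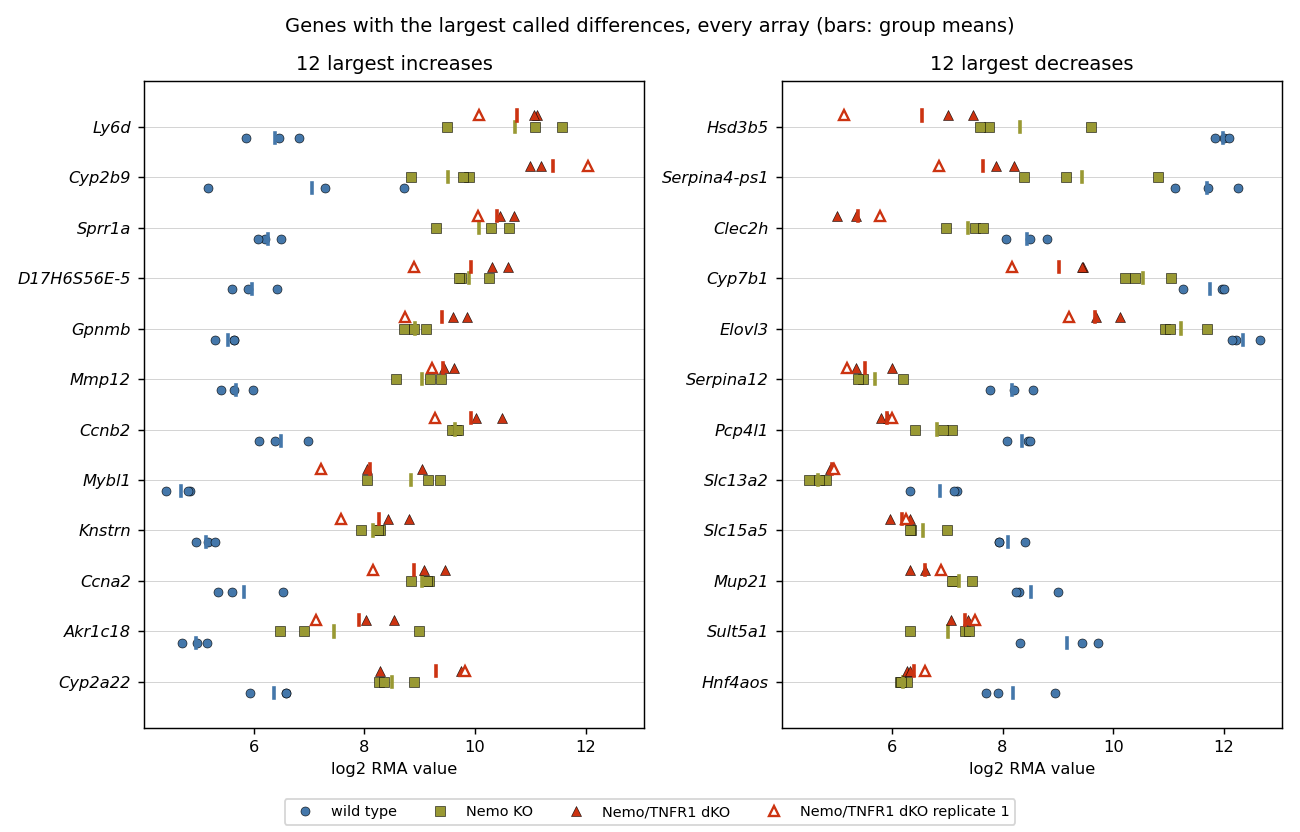
Log2 RMA values of the 12 single-gene probe sets with the largest called increases (left) and decreases (right) in the Nemo/TNFR1 double knockout against wild type, for every wild-type, Nemo KO and double knockout array, with bars at the group means and an open triangle for double knockout replicate 1. Hsd3b5 lies at 5.13 in that replicate against 11.85 or more in wild type.

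Genes of cell death and of the DNA damage response moved in part. Of 21 p53 targets 8 rose and none fell, with a median difference of 0.45. Eda2r, a death domain receptor, read 4.94, 4.60 and 5.21 in wild type and 6.37, 7.10 and 6.59 in the double knockout (difference 1.77, SE 0.25, adjusted p = 0.00256). Tnfrsf10b, the TRAIL receptor, read 6.18, 6.33 and 6.23 against 7.51, 8.09 and 7.96, a 3.04-fold rise (adjusted p = 0.000909). The groups were apart for both receptors. Phlda3, an inhibitor of Akt signalling, rose by 1.54 and the cell cycle regulator Gtse1 by 1.13. Among 25 cell death genes 6 rose and 2 fell, and the median difference was 0.07. Mlkl, which executes necroptosis, rose 2.25-fold from 6.50, 6.06 and 5.93 to 7.18, 7.40 and 7.43 (adjusted p = 0.0018), and Bcl2l11, encoding the pro-apoptotic protein Bim, rose by 0.55. Bid, which links death receptors to mitochondria, fell by 0.53, with an adjusted p of 0.0341 that was 0.0925, 0.0917 and 0.0584 without wild-type replicates 1, 2 and 3. The number of rising cell death genes was 3 without double knockout replicate 2 or 3 or wild-type replicate 3, and 4 without double knockout replicate 1 or wild-type replicate 1. The number of falling ones was 1 without double knockout replicate 1 or 2 or wild-type replicate 3, and 0 without wild-type replicate 1 or 2.

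The TNF family and the NF-kB pathway itself changed in few genes. Of 26 other TNF superfamily ligands and receptors 3 rose, all of them receptors. Tnfrsf12a, the receptor of TWEAK, read 7.09, 7.17 and 7.42 in wild type and 7.85, 8.25 and 8.24 in the double knockout (difference 0.89, SE 0.15, adjusted p = 0.00642). Tnfrsf21, also called death receptor 6, rose by 0.66 (SE 0.11, adjusted p = 0.00555), and by 1.26 in Nemo KO over the same wild-type arrays. The direct difference between the knockouts was -0.60 (adjusted p = 0.281) and was not called. Tnfrsf11b, the decoy receptor osteoprotegerin, rose by 0.46, with an adjusted p of 0.0208 that was 0.0765, 0.0538 and 0.0622 without double knockout replicate 2, wild-type replicate 2 and wild-type replicate 3. Of 16 genes of IKK and NF-kB subunits, Ikbkg fell and Map3k14, the kinase NIK of the alternative pathway, rose by 0.54 (adjusted p = 0.0135, and 0.0566 without double knockout replicate 3, while 2 genes of the list rose without wild-type replicate 2).

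Among 29 NF-kB target genes 5 rose and 1 fell, and the median difference was 0.03. Vcam1, an adhesion molecule for leukocytes, read 6.78, 7.32 and 6.83 in wild type and 9.09, 9.46 and 9.39 in the double knockout, a 5.05-fold rise (adjusted p = 0.000482). Ccl5, a chemokine for T cells and monocytes, rose 2.35-fold (difference 1.23, SE 0.20, adjusted p = 0.0048). Saa3, an inducible serum amyloid, was lower in all double knockout arrays (4.77, 4.80 and 4.98) than in wild type (5.92, 5.78 and 6.13) and fell by 1.10 (adjusted p = 0.000496). These 3 genes thus did not move together. Without wild-type replicate 1 the rising genes numbered 3, and without double knockout replicate 3 the falling ones numbered 2.

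Immediate early genes, switched on within minutes of a stimulus, rose in 5 of 20. The stress factor gene Atf3 read 6.99, 6.39 and 6.62 in wild type and 8.00, 8.31 and 9.26 in the double knockout (difference 1.85, SE 0.31, adjusted p = 0.00531). Klf6, a zinc finger factor of tissue injury, rose by 1.65 (adjusted p = 0.00335) and Egr2 by 1.35 (adjusted p = 0.0147, and 0.0549 without double knockout replicate 3). Double knockout replicate 3 was the highest array for all of these genes, and without it 2 of the 20 were called.

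The matrix programme of fibrosis was broad. Of 33 extracellular matrix genes 24 rose and none fell, with a median difference of 0.83, and the count was between 19 and 27 whichever array was left out. Col1a1, the alpha 1 chain of type I collagen, read 7.31, 7.45 and 8.23 in wild type and 8.88, 9.80 and 9.78 in the double knockout, a 3.54-fold rise (difference 1.82, SE 0.28, adjusted p = 0.00398). Tnc, the injury matrix protein tenascin C, rose 4.8-fold (adjusted p = 0.00514), and Thbs1, the TGF-beta activating protein thrombospondin 1, rose 4.21-fold (adjusted p = 0.00321). The groups were apart for all 3 genes. Lum, the collagen-binding lumican, rose 3.9-fold.

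Of 20 matrix proteases and protease inhibitors 12 rose, with a median difference of 0.60. Mmp12, a macrophage elastase, read 5.64, 5.41 and 5.99 in wild type and 9.22, 9.62 and 9.44 in the double knockout, a 13.4-fold rise (adjusted p = 8.24e-05). Mmp13, a collagenase, rose 4.53-fold (difference 2.18, SE 0.21, adjusted p = 0.000539). Adamts5, a proteoglycan-cleaving protease, rose by 1.66 and Plat, the tissue plasminogen activator, by 1.65.

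Markers of hepatic stellate cells, the main source of scar collagen, rose in 10 of 18 with a median difference of 0.56. Pdgfrb, the receptor that drives their proliferation, read 8.17, 8.00 and 8.31 in wild type and 9.13, 9.52 and 9.95 in the double knockout (difference 1.38, SE 0.20, adjusted p = 0.00291). Cygb, a globin of these cells, rose by 1.35 (SE 0.14, adjusted p = 0.000687) and Vim, the filament protein vimentin, by 1.15 (adjusted p = 0.00997). Of 15 TGF-beta genes 7 rose, among them Tgfbr2, the signalling receptor, at 8.38, 8.34 and 8.38 against 9.32, 9.37 and 9.45 (adjusted p = 0.000482). Smad7, the feedback inhibitor of this pathway, rose by 1.08 and Tgfbi, a secreted target protein, by 1.13. The TGF-beta count was 4 without double knockout replicate 2 or 3.

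Macrophage genes of lipid-filled and scarred liver rose in 20 of 24 with a median difference of 1.31. Trem2, a lipid-sensing receptor of these cells, read 6.87, 6.88 and 7.0 in wild type and 8.01, 8.23 and 8.15 in the double knockout, a 2.32-fold rise (difference 1.21, SE 0.08, adjusted p = 9.58e-05). Atp6v0d2, a macrophage subunit of the lysosomal proton pump, rose 4.95-fold (difference 2.31, SE 0.39, adjusted p = 0.0057), and Anxa2, a membrane-binding annexin, rose 4.57-fold (adjusted p = 0.00116). For these 3 genes every double knockout array lay above every wild-type array. Of 17 monocyte markers 12 rose, with a median difference of 0.98. Itgb2, the common chain of leukocyte integrins, read 6.93, 6.84 and 6.98 against 8.05, 8.11 and 8.38 (difference 1.26, SE 0.10, adjusted p = 0.000222). The monocyte genes Ms4a6c, Mpeg1 and Plac8 rose by 1.45, 1.38 and 1.35. Of 12 Kupffer cell markers 4 rose, with a median difference of 0.23. The mean was higher in 8 and lower in 4, with differences down to -0.78. Without wild-type replicate 3, 2 rose and 1 fell, and without double knockout replicate 1, 3 rose and 1 fell. Cd5l, a scavenger protein of resident macrophages, rose by 1.09 (SE 0.17, adjusted p = 0.00426), and the interleukin-18 inhibitor Il18bp by 0.65 (SE 0.07, adjusted p = 0.00108).

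Markers of lymphocytes and granulocytes rose in few genes. Of 22 T and NK cell markers 5 rose and the median difference was 0.07, with 3 called without double knockout replicate 3. Nkg7, a granule protein of cytotoxic cells, read 5.70, 5.43 and 5.71 in wild type and 6.39, 6.62 and 7.12 in the double knockout (difference 1.10, SE 0.17, adjusted p = 0.00414), and Cd3g, of the T cell receptor complex, rose by 0.86 (adjusted p = 0.0126). B cell markers gave 1 rise in 14, which was Cd22 (0.39, adjusted p = 0.00508). Neutrophil markers gave 1 rise in 16, and that count was 2 without wild-type replicate 2 and 0 without any other single array. Sinusoidal endothelial markers gave 2 rises in 20, Lyve1 (0.80, adjusted p = 0.00792) and Rspo3 (0.59, adjusted p = 0.00723). Class II antigen presentation rose in 3 of 8 genes with a median difference of 0.90, but the count was 5 without double knockout replicate 1, 2 without replicate 2 and 0 without any of the other 4 arrays. Class I presentation rose in 3 of 10, and in none without double knockout replicate 2 or 3 or wild-type replicate 2.

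Of 35 chemokines and chemokine receptors 9 rose and the median difference was 0.15. Ccl6, a macrophage chemokine, read 7.42, 7.54 and 7.58 in wild type and 8.61, 8.74 and 8.75 in the double knockout (difference 1.19, SE 0.12, adjusted p = 0.00079). Ccl3, another macrophage chemokine, rose 2.78-fold (difference 1.48, SE 0.30, adjusted p = 0.0142). Without wild-type replicate 1 or 2, 5 of the 35 were called.

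Interferon-stimulated genes rose in 13 of 29 with a median difference of 0.48, and none fell. Usp18, the protease that restrains interferon signalling, read 7.89, 7.56 and 7.46 in wild type and 9.23, 9.32 and 9.26 in the double knockout, a 3.09-fold rise (adjusted p = 0.000272). Oasl2 and Oas2, of the oligoadenylate synthetase family, rose by 1.20 and 1.16, and Ifi27l2a by 1.36. The count was 8 without double knockout replicate 2 or wild-type replicate 2, and 9 without double knockout replicate 3 or wild-type replicate 3, so these arrays decided many of the single calls though not those of the 4 genes named. In 24 of 29 genes the double knockout mean was below that of Nemo KO, with a median difference of -0.07 and none called. The level of the list overlapped, at 0.41, 0.65 and 0.57 in the double knockout arrays and 0.51, 0.75 and 0.64 in Nemo KO.

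The letters GAAA, any 2 bases and GAAA again, the core of the element that interferon-activated factors bind, occurred on either strand in the 150 bases before the start in 8 of 20 of these genes with a RefSeq promoter (40%) against 1.6% of 27025 promoters. Gbp3, an interferon-induced GTPase that rose by 0.99 and was chosen after its value was seen, is shown as a promoter with matches and Oasl2 as one without. Irf7, another called gene of the list, also had 0 matches and is not printed. Gbp3 has 2 annotated starts, and the first listed was used. Gbp3 lies at chr3:142559894-142560043 (plus strand) and Oasl2 at chr5:114896784-114896933 (plus strand) on GRCm38.p6.
Gbp3: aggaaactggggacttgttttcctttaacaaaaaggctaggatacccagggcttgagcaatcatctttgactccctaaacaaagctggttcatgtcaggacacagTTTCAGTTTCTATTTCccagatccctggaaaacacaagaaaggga
Oasl2: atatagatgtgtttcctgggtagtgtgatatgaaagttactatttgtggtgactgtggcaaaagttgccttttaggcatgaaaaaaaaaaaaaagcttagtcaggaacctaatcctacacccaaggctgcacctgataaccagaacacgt
The capitals in Gbp3 mark 2 overlapping matches on the opposite strand, and no match in Oasl2 says only that these letters are not in this window.

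Genes of the list linked to foetal liver and tumours rose in 9 of 19 with a median difference of 0.78. Ly6d, Sprr1a, Mybl1 and Akr1c18, of the largest rises above, are on it. This list, like the others, was written with earlier results of these data known, so its count is not independent support. Markers of bile duct and progenitor cells rose in 4 of 16 with a median difference of 0.28, and 0 fell by the test. The mean was higher in 13 and lower in 3, with differences down to -1.09. Bicc1, an RNA-binding protein of ductal cells, rose by 1.20 (adjusted p = 0.00939) and Krt23, a stress keratin, by 0.81 (adjusted p = 0.0149). Of 22 annexin and S100 genes 7 rose, and 4 did so without double knockout replicate 2. Anxa5, which binds exposed phosphatidylserine, read 10.94, 11.06 and 10.65 in wild type and 12.03, 12.40 and 12.38 in the double knockout (difference 1.39, SE 0.13, adjusted p = 0.000535). S100a11, a calcium-binding protein, rose by 1.72 (adjusted p = 0.00179).

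The hepatocyte acute phase output did not rise as a group. Of 28 acute phase genes 4 rose and 7 fell, with a median difference of -0.11. Mt2 had the largest difference of the list, a rise of 1.55 (SE 0.41, adjusted p = 0.0438). That call held in 1 of 6 fits without 1 array, with an adjusted p of up to 0.144. Lbp, the lipopolysaccharide-binding protein, read 10.99, 11.32 and 11.14 in wild type and 10.31, 10.13 and 9.89 in the double knockout and fell by 1.04 (SE 0.11, adjusted p = 0.000867). Orm2, the acute phase glycoprotein orosomucoid 2, read 9.00, 8.89 and 8.85 in wild type and 9.44, 8.95 and 8.90 in the double knockout, with overlapping groups and a difference of 0.18 (SE 0.18, adjusted p = 0.589). Falling acute phase genes numbered 2 without double knockout replicate 2 or wild-type replicate 2, 3 without double knockout replicate 1 and 4 without wild-type replicate 1. Rising ones numbered 2 without double knockout replicate 2 or 3 or wild-type replicate 1 or 3. Without wild-type replicate 2, 5 acute phase genes rose and 2 fell. Of 32 complement and coagulation genes 3 rose and 6 fell. The 3 that rose were C1qa, C1qb and C1qc, subunits of the macrophage-made recognition protein of the classical pathway, by 0.94, 1.01 and 1.04. C1qb read 10.31, 10.26 and 10.40 in wild type and 11.28, 11.33 and 11.40 in the double knockout. C2, a complement protease made by hepatocytes, fell by 0.87 (SE 0.09, adjusted p = 0.000787).

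Most genes of hepatocyte identity were not called. In the list of 29 such genes 3 fell and 0 rose, with a median difference of -0.10, and without double knockout replicate 1 the number that fell was 8. Igfals, which carries IGF1 in plasma, read 9.85, 9.68 and 9.90 in wild type and 9.04, 8.76 and 8.68 in the double knockout and fell by 0.98 (SE 0.13, adjusted p = 0.0019). The clotting factor gene F7 fell by 0.69 (adjusted p = 0.00367). Drug-metabolising cytochrome P450 genes fell in 9 of 29 and rose in 2. Cyp2c37, an arachidonic acid and drug oxidase, fell by 1.41 from 11.68, 11.51 and 11.59 to 10.77, 9.81 and 9.96 (adjusted p = 0.00498), and Cyp2u1 fell by 1.11 (adjusted p = 0.00174). The 2 that rose, Cyp2b9 and Cyp2b10, are also on the female-biased list. Cyp2b10, a drug-inducible oxidase, rose by 2.12 (adjusted p = 0.0226), and its adjusted p was 0.0648 and 0.0591 without double knockout replicates 1 and 2 and 0.0696 without wild-type replicate 3. The number of P450 genes that rose was 0 without double knockout replicate 2, 1 without double knockout replicate 1 or 3 or wild-type replicate 3 and 3 without wild-type replicate 2. Without double knockout replicate 2 or 3 or wild-type replicate 1 the falling P450 genes numbered 3, without wild-type replicate 3 they numbered 4 and without wild-type replicate 2 they numbered 5.

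Bile acid synthesis and transport fell in 6 of 30 with a median difference of -0.28. Nr0b2, the repressor SHP that bile acids induce, read 9.97, 9.43 and 9.69 in wild type and 8.09, 8.66 and 8.41 in the double knockout and fell by 1.31 (SE 0.16, adjusted p = 0.00136). Slco1a1, an organic anion importer, fell by 1.48 (SE 0.21, adjusted p = 0.00266). The canalicular phospholipid pump gene Abcb4 was the 1 gene that rose, by 0.81 (adjusted p = 0.000672), with 2 rising without wild-type replicate 2. Double knockout replicate 1 had the smallest shift of the 3 arrays in this list (-0.21 against -0.34 and -0.42), and without it 14 of the 30 were called lower.

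Genes that male livers express above female livers under pulsed growth hormone fell in 13 of 21, and held the largest single fall. Hsd3b5, a steroid-metabolising enzyme of male liver, read between 11.85 and 12.10 in the 3 wild-type arrays and 5.13, 7.47 and 7.01 in the double knockout, a level 43.6-fold higher in wild type (difference -5.45, SE 0.77, adjusted p = 0.00273). Cyp7b1, the oxysterol hydroxylase, read 11.96, 11.27 and 12.01 against 8.17, 9.46 and 9.43 and fell by 2.72 (SE 0.46, adjusted p = 0.00588). Elovl3, an elongase of very long fatty acids, read 12.23, 12.15 and 12.65 against 9.21, 10.13 and 9.69 and fell by 2.67 (SE 0.49, adjusted p = 0.0093). The groups were far apart for all 3, and double knockout replicate 1 was the lowest array in each. Serpina12, the adipokine vaspin, fell by 2.66 and Mup21, a major urinary protein, by 1.91, though Mup genes are near-identical and their probe sets may share signal. The median difference of the list was -0.74, and the number that fell was between 11 and 13 whichever array was left out. Hsd17b13, a lipid droplet protein, was the 1 gene that rose, by 0.54, and its adjusted p was 0.0517, 0.0819, 0.0625 and 0.0666 without double knockout replicate 1 or 2 or wild-type replicate 2 or 3.

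Female-biased genes rose in 6 of 18, with a median difference of 0.69 and none lower by the test. Ntrk2, a neurotrophin receptor, read 5.52, 5.67 and 5.82 in wild type and 7.75, 7.83 and 7.98 in the double knockout, a 4.53-fold rise (difference 2.18, SE 0.10, adjusted p = 5.77e-05). Cyp2b9, a female-specific cytochrome P450, read 5.18, 8.71 and 7.28 in wild type and 12.05, 10.99 and 11.19 in the double knockout, a 20.4-fold rise with a wide error (difference 4.35, SE 0.94, adjusted p = 0.0192). The wild-type arrays differed widely among themselves for Cyp2b9, and its adjusted p was 0.0547, 0.0503 and 0.056 without double knockout replicates 1, 2 and 3. The count of 6 was 1 without double knockout replicate 1 or 2 and 3 without wild-type replicate 1 or 3, 4 without double knockout replicate 3 and 5 without wild-type replicate 2. In Nemo KO, against the same wild-type arrays, the list medians were -0.35 for male-biased and 0.34 for female-biased genes. No gene of either list was called between the knockouts. Hsd3b5 differed there by -1.78 (95% interval -3.51 to -0.05, adjusted p = 0.72) and Cyp7b1 by -1.53 (-2.56 to -0.49, adjusted p = 0.526). These intervals are not adjusted for the number of probe sets tested. The Nemo/TRAIL double knockout arrays read 8.14 and 5.78 for Hsd3b5 and 10.51 and 8.97 for Cyp7b1. Of 18 genes of the growth hormone and IGF axis, Igfals and the growth hormone receptor gene Ghr fell, Ghr by 0.44 from 12.24, 12.18 and 12.29 to 11.87, 11.71 and 11.81 (adjusted p = 0.00656), while Igf1r rose by 0.45 (adjusted p = 0.00653).

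**Figure D3:**
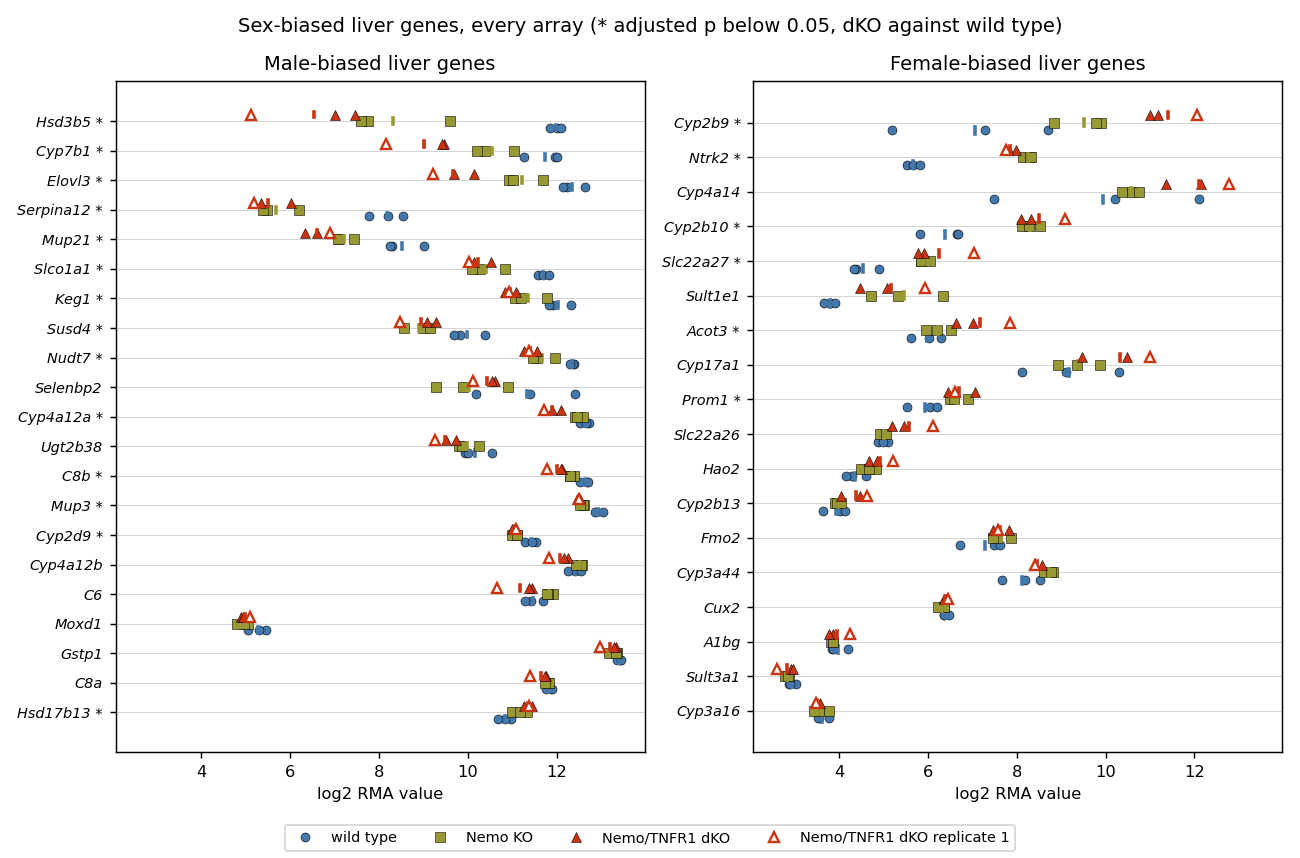
Log2 RMA values of the measured male-biased (left, 21 genes) and female-biased (right, 18 genes) liver genes in every wild-type, Nemo KO and double knockout array, ordered by the difference between double knockout and wild type, with bars at group means and asterisks at an adjusted p below 0.05. The 13 called falls among male-biased genes run from Hsd3b5 (-5.45) to Cyp2d9 (-0.37).

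Other large falls lay outside these lists. Pcp4l1, a small IQ-motif protein, read 8.46, 8.50 and 8.08 in wild type and 6.01, 5.93 and 5.80 in the double knockout and fell by 2.43 (SE 0.17, adjusted p = 0.000134). Slc13a2, a citrate importer, fell by 1.95 and Slc15a5, of the peptide transporter family, by 1.91. The antisense transcript Hnf4aos fell by 1.80. The array strand of its probes was not examined here, and the sense gene Hnf4a differed by -0.09. Serpina4-ps1, a serpin pseudogene, had a difference of -4.05 and an adjusted p of 0.0344. That call was lost without any 1 of the 6 arrays (adjusted p from 0.0623 to 0.0932), and near-identical serpin genes could share its probes. The sulfotransferase gene Sult5a1 fell by 1.84, with an adjusted p of 0.0138 that was 0.0569 without double knockout replicate 2. Among the rises outside them was Cyp2a22, a P450 with close paralogs, at 7.55-fold.

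Lipid handling and antioxidant genes rose in part. Of 31 genes of lipid synthesis, uptake and droplets 6 rose and 1 fell. Cd36, the fatty acid importer, read 8.51, 8.47 and 8.66 in wild type and 10.56, 10.63 and 10.32 in the double knockout, a 3.88-fold rise (difference 1.96, SE 0.13, adjusted p = 9.63e-05). Lpl, lipoprotein lipase, rose 3.23-fold and the desaturase gene Scd2 3.89-fold. Without double knockout replicate 2 the rising genes numbered 9, and none fell without that array or wild-type replicate 2. Of 25 genes of fatty acid oxidation 5 rose, and 3 did so without double knockout replicate 1 or 2 or wild-type replicate 1. Pdk4, which turns glucose oxidation down, rose 3.04-fold (adjusted p = 0.00172) and Acot2, a mitochondrial thioesterase, 2.27-fold (adjusted p = 0.00306). Cholesterol synthesis genes gave 0 calls in 19 by limma, with 2 falling without double knockout replicate 1 and 1 without replicate 3, and the level of the list was 0.06, -0.71 and -0.12 in double knockout replicates 1, 2 and 3. Mvd, with the largest difference, had -0.75 (SE 0.25, adjusted p = 0.103).

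Antioxidant genes of the NRF2 list rose in 7 of 27, with 0 falls. Srxn1, which repairs peroxiredoxins, read 8.47, 8.37 and 8.34 in wild type and 9.56, 10.01 and 10.02 in the double knockout (difference 1.47, SE 0.13, adjusted p = 0.000411). Nqo1, a quinone reductase, rose by 1.42 (adjusted p = 0.00999), Hmox1, haem oxygenase 1, by 1.19 (adjusted p = 0.0101) and the glutathione transferase gene Gstm3 by 1.22 (adjusted p = 0.000134). Phase II transferases as a whole gave 3 rises and 3 falls in 29. Genes of the unfolded protein response fell in 4 of 24 and rose in 1, which was Atf3. Creld2, an endoplasmic reticulum chaperone, read 10.38, 10.66 and 10.90 in wild type and 9.44, 9.82 and 9.92 in the double knockout and fell by 0.91 (SE 0.18, adjusted p = 0.0135), and Sdf2l1 fell by 0.81 (adjusted p = 0.01). Without double knockout replicate 2 or 3 or wild-type replicate 2 or 3 the falling genes numbered 2, and without wild-type replicate 1, 2 genes rose and 5 fell.

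In the zonated and most other metabolic lists the counts depended on single arrays. Pericentral genes rose in 4 of 19, but in 0 to 3 once any array was left out, with 0 without wild-type replicate 2, 1 without double knockout replicate 2 or wild-type replicate 3 and 2 without double knockout replicate 1 or 3. Periportal urea and amino acid genes fell in 5 of 20, in 8 without double knockout replicate 1, in 2 without wild-type replicate 3 and in none without any of the other 4 arrays. They rose in 2 of 20, in 3 without wild-type replicate 1 and in 1 without wild-type replicate 2 or 3 or double knockout replicate 1 or 2. Aldh1b1, a mitochondrial aldehyde dehydrogenase, rose by 1.62 from 8.67, 8.38 and 8.04 to 9.89, 9.93 and 10.13 (adjusted p = 0.000535). Among 24 iron and haem genes 3 rose and 1 fell. Alad, which makes porphobilinogen in haem synthesis, read 11.90, 11.78 and 11.76 in wild type and 12.39, 12.52 and 12.55 in the double knockout (difference 0.68, SE 0.08, adjusted p = 0.00131). The iron transporter gene Slc11a2 fell by 0.62 (adjusted p = 0.01). Rising iron and haem genes numbered 2 without any array of either genotype except wild-type replicate 2, without which they numbered 5. Without double knockout replicate 1, 2 iron and haem genes fell. The erythroid list fell in 1 of 5 genes, Alas2 (-1.14, adjusted p = 0.00239). Of 19 clock genes 2 rose and 1 fell, which was Cry1, by 0.78 (adjusted p = 0.00574). Without double knockout replicate 2 or wild-type replicate 3 none rose, 1 rose without double knockout replicate 1 or wild-type replicate 1 or 2, and 2 fell without double knockout replicate 3.

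Replicate 1 of the double knockout had lower levels of several lists than the other double knockout arrays. In each of the 7 lists where at least 50% of the genes rose, it was the lowest of the 3 double knockout arrays. Its mitosis level, the mean difference of list genes from their wild-type means, was 1.34 against 2.30 and 2.09 in replicates 2 and 3. Its matrix level was 0.64 against 1.14 and 1.17, and its monocyte level 0.65 against 0.85 and 1.01. In DNA replication it was close to replicate 3, at 0.72 against 0.74, with 1.10 in replicate 2. It was not the lowest in NF-kB targets (0.14 against 0.09 and 0.35), the NRF2 list (0.31 against 0.37 and 0.29) or T and NK cell markers (0.18 against 0.15 and 0.33), and it was the highest in Kupffer cell markers (0.26 against 0.14 and 0.13). The mitosis, matrix and monocyte levels stayed above every wild-type array. In male-biased genes it was the furthest from wild type (-1.43 against -0.96 and -1.10), and in female-biased genes the highest (1.38 against 0.89 and 0.90). Without this replicate 3342 probe sets were called. The median difference from wild type was then 2.26 for the mitosis list and 0.97 for the matrix list.

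**Figure D4:**
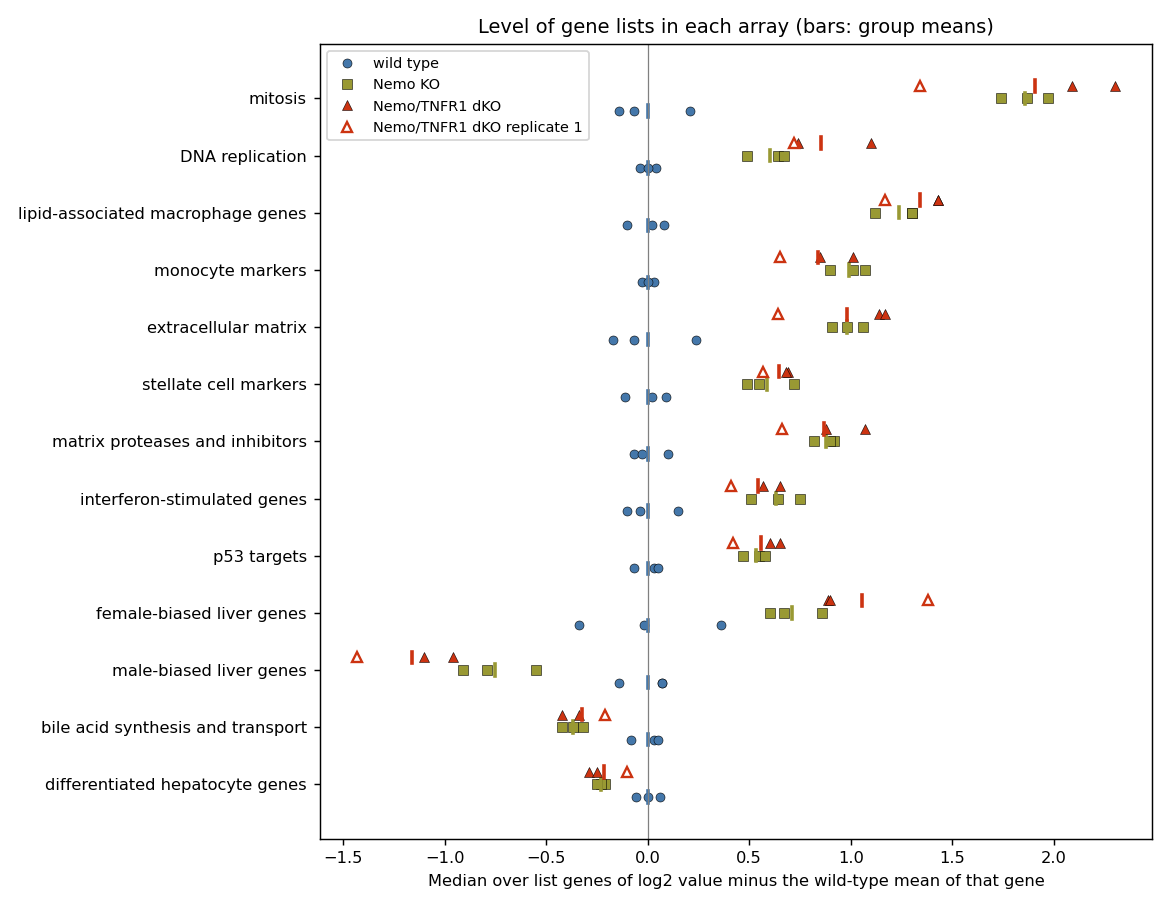
Level of 13 gene lists in every wild-type, Nemo KO and Nemo/TNFR1 double knockout array, with bars at group means. A level is the mean, not the median of the axis label, over list genes of the log2 value minus the wild-type mean of each gene. Double knockout replicate 1 (open triangle) has the lowest mitosis level of its group (1.34) and the most negative male-biased level (-1.43).

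Set against the Nemo deletion alone, the double knockout differed in 12 probe sets, 0.0337% of those tested, 1 higher and 11 lower, while 2440 passed an unadjusted p below 0.05, a threshold at which 1778 are expected by chance. The comparisons of either knockout with wild type share the wild-type arrays, so their values are only given side by side. The median differences from wild type were 1.95 in the double knockout and 1.87 in Nemo KO for mitosis, 0.83 and 0.90 for extracellular matrix, 1.31 and 1.34 for lipid-associated macrophage genes, and 0.98 and 1.06 for monocyte markers. That no gene of these lists but Trem2 was called between the knockouts does not show that the genotypes are alike. For Ccnb2 the 95% interval of the difference ran from -0.37 to 0.93 and for Col1a1 from -0.55 to 0.72.

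Of the probe sets called between the knockouts, 3 have a single gene name. Trem2 was higher in the double knockout (8.01, 8.23 and 8.15) than in Nemo KO (7.28, 7.45 and 7.43), by 0.74 (95% interval 0.56 to 0.92, adjusted p = 0.0141). Orm2 was lower (9.44, 8.95 and 8.90 against 10.66, 10.56 and 11.17), with a log2 difference of -1.70 (95% interval -2.10 to -1.30, adjusted p = 0.0118). In Nemo KO Orm2 stood 1.88 above wild type, and in the double knockout it did not differ from wild type by the test. Clec2h, a C-type lectin, read 8.80, 8.06 and 8.49 in wild type, 7.51, 7.65 and 6.98 in Nemo KO and 5.79, 5.36 and 5.0 in the double knockout, and differed from Nemo KO by -2.00 (-2.55 to -1.44, adjusted p = 0.0431). With 1 array left out, the adjusted p of Trem2 was 0.0812 and 0.111 without double knockout replicates 2 and 3 and 0.07, 0.0608 and 0.0672 without Nemo KO replicates 1, 2 and 3. For Orm2 it was 0.0812 and 0.0803 without double knockout replicates 2 and 3. For Clec2h it was 0.181 and 0.166 without those same arrays and 0.185 and 0.149 without Nemo KO replicates 1 and 2. None of the 3 genes was called when only the 6 arrays of both knockouts were fitted, with adjusted p from 0.168 to 0.175, or with the replicate block, with adjusted p from 0.144 to 0.487. Clec2h had an adjusted p of 0.0531 with robust moderation. Alad missed the threshold, with a difference of 0.64 (0.45 to 0.82, adjusted p = 0.0511).

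**Figure D5:**
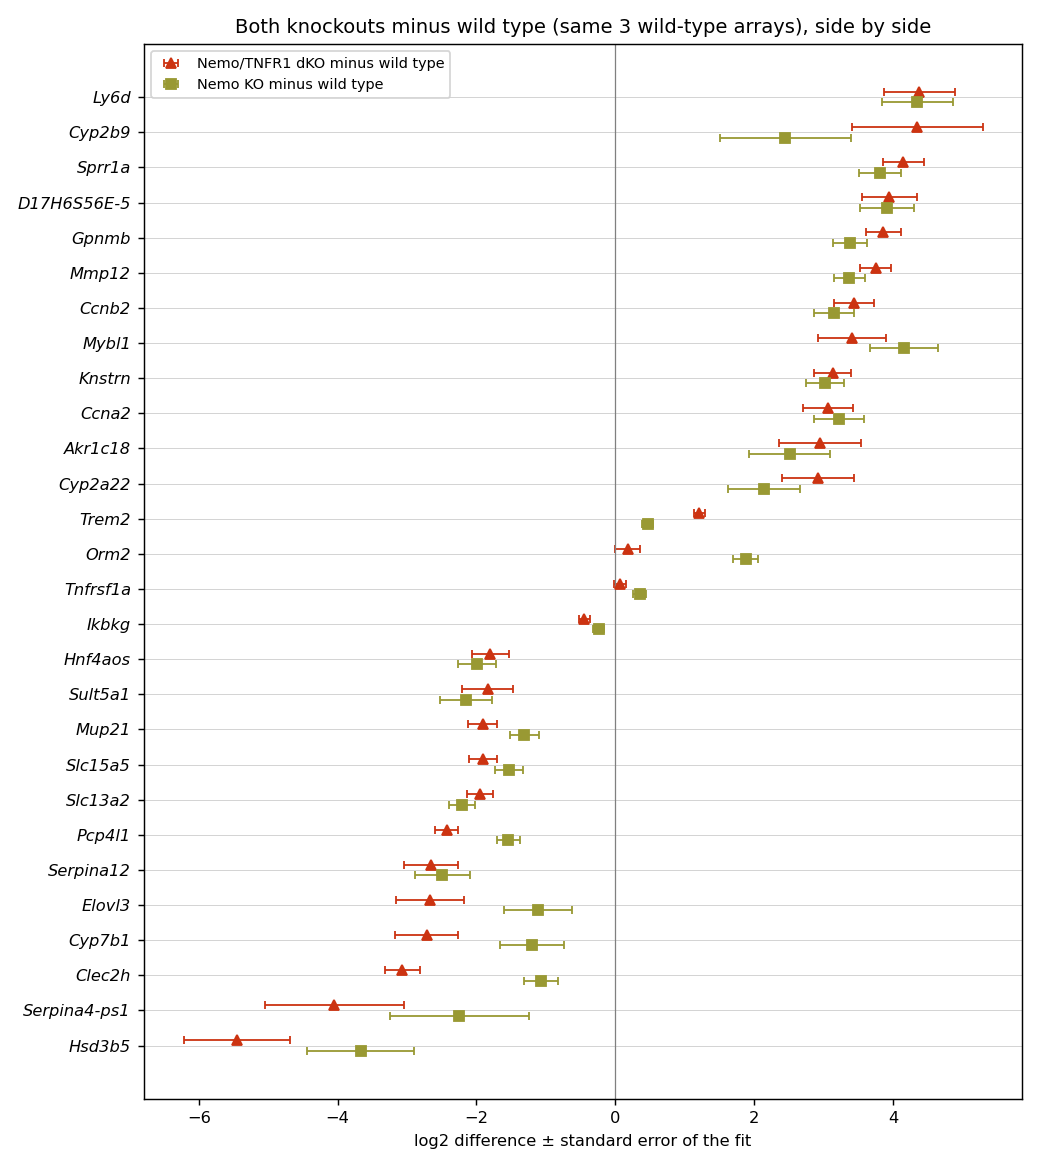
Log2 difference from the same 3 wild-type arrays in the Nemo/TNFR1 double knockout (triangles) and in Nemo KO (squares), with standard errors of the fit, for the 12 largest rises, the 12 largest falls, the targeted genes and the genes called between the knockouts. Orm2 lies at 0.18 and 1.88, Trem2 at 1.21 and 0.47, and Ly6d at 4.38 and 4.35.

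The remaining 9 probe sets called between the knockouts each match several near-identical genes, the 4933409K07Rik family, and cannot be assigned to 1 of them. Their mean read 8.45, 9.03 and 8.69 in wild type, 9.23, 9.11 and 9.38 in Nemo KO and 6.21, 6.17 and 6.39 in the double knockout. The double knockout stood apart from both other genotypes, with median differences of -2.51 from wild type and -2.99 from Nemo KO. All 9 were also called against wild type, and the largest adjusted p was 9.87e-05 there and 4.02e-05 against Nemo KO. All 9 were also called with only the 6 arrays of both knockouts and with the replicate block. Since these probe sets share sequence, they are not 9 separate observations.

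The constitutive TNFR1 deletion came in by crossing, so the genes beside Tnfrsf1a on chromosome 6 were looked at as a group. Of the 100 nearest measured genes, 50 on each side, 9 rose and 8 fell, 17% against 12.1% of all genes represented in the same way, and of the 100 nearest to Ikbkg on chromosome X 10 rose and 1 fell, 11%. Scnn1a, a sodium channel subunit gene and the measured gene just before Tnfrsf1a in map order, read 8.96, 8.98 and 9.04 in wild type and 8.29, 7.51 and 7.69 in the double knockout, and 7.87, 7.65 and 7.45 in Nemo KO, whose TNFR1 gene was not deleted. Clec2h lies in the same stretch with Clec2d, Clec2g and Clec2j, which fell by 0.96, 0.46 and 0.62. In Nemo KO these 3 genes differed from wild type by -0.85, -0.38 and -0.41, and between the knockouts by -0.11, -0.08 and -0.20 with none called. Clec2h was the 1 gene of the 100 called against Nemo KO. Several of the other called neighbours belong to lists described above, such as the mitotic gene Cdca3. Whether DNA of another strain was carried along beside the deleted gene was not tested.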

How the data were processed

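Liver RNA was measured on 11 arrays, and the authors deposited 1 table of log2 values per probe set. The values were made with RMA, per the submitters' processing notes; its version, and how arrays were grouped for it, are not given in the sources used here. Of 35556 probe sets 21789 carry 1 gene symbol in the platform annotation, 1621 several and 12146 none, and 21698 of the single-symbol sets matched RefSeq (GRCm38) by gene identifier.

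All 11 arrays were fitted with limma 3.58.1 in R 4.3.3 (lmFit and eBayes, 7 residual degrees of freedom), so that the 4 genotypes share 1 estimate of the spread, and p-values were adjusted over all probe sets by the Benjamini-Hochberg method. A gene was called, and "rose" or "fell" was written, at an adjusted p below 0.05. With 3 arrays against 3 an exact permutation test cannot go below 0.1, so no such test is given. A gene with several probe sets is represented in a list by the 1 with the highest mean signal. The fit was tested on simulated data for the comparison with wild type: it found 65.7% of 67 changed 1.5-fold, 88.1% of 67 changed 2-fold and 95.5% of 66 changed 4-fold, with 3 false calls. In the simulation only these probe sets changed, and the noise was independent between probe sets. Shifts shared by many genes of 1 array, as in wild-type replicate 3, were not simulated. The rates therefore need not hold for the calls reported here.

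Named genes are the targeted genes, the 12 largest called differences in each direction among single-symbol probe sets with non-overlapping groups (predicted genes left out), up to 4 called members of each list by size (or, with none called, the member with the largest difference) and the single-symbol genes called against Nemo KO. Alb, Hnf4a, Mcm10, Gbp3, Irf7, Cyp2d9, Scnn1a, Cdca3, Clec2d, Clec2g and Clec2j lie outside this rule and were chosen after their values were seen. The members, the gene lists and the named-gene rule were chosen with earlier results of these data known. The labels do not say whether replicate numbers pair the arrays. Residual correlations between double knockout and wild-type arrays were -0.03, 0.02 and 0.03 for same-numbered arrays and -0.05 to 0.04 for the others. Such values over all probe sets cannot exclude that some arrays were related. Alternatives were the normalization, the moderation, a filter on low signal, array weights, the arrays fitted, a replicate block, stricter thresholds and leaving out each array.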

Additional observations from a re-analysis of the deposited data

Results flagged for a closer look

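The genes that differed between the double knockout and the Nemo deletion alone by the test of that difference are listed here with their values. Trem2 was higher in the double knockout by 0.74, Orm2 differed by -1.70 and Clec2h by -2.00. The median over 9 probe sets of the 4933409K07Rik family was -2.99. The Nemo/TRAIL double knockout arrays, whose names carry a code of their own, had means of 7.78 for Trem2, 10.66 for Orm2 and 7.51 for Clec2h, and their family means were 9.42 and 9.09. No explanation was tested for any of these differences, and if the code in the array names marks a batch, the batch of the TNFR1 double knockout arrays cannot be told apart from their genotype.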

How the results depend on the processing

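The number of probe sets called against wild type was 3263. It was 1831 with only the 6 arrays of both groups, 1625 with a fold of at least 1.5 required and 1411 at an adjusted p below 0.01, and leaving out 1 array gave 1926 to 3342. The replicate block gave 700 calls, the lowest count of any setting, 641 of them shared with the 3263. Whether the replicate numbers pair the arrays is not given. Under the other settings the count was 3203 to 3621, and against Nemo KO it was 9 to 14 under every setting run. Of the 12 probe sets called there, 9 were shared with the 12 called with only the 6 arrays and with the 9 called with the replicate block, so Trem2, Orm2 and Clec2h were lost in both. Stricter thresholds give lower counts by construction; for the other lower counts the cause was not tested. Of 153 named genes called against wild type, 112 were called in all 6 fits without 1 array and 74 in every alternative fit, and no named gene changed sign when called. The stricter thresholds for fold and adjusted p were not applied to these counts. Leaving out double knockout replicates 1, 2 and 3 ended 17, 31 and 30 of these calls, and leaving out wild-type replicates 1, 2 and 3 ended 21, 27 and 27. Differences under 1.5-fold are near the limit of 3 arrays a group.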
